A study of Mus musculus with 21 samples.

Results

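The genes described here are 39 that encode the machinery of glycolysis and the pentose phosphate pathway. Their choice was by name, as members of these pathways, and was made with earlier results of these data known. They were read from 3′ RNA sequencing of mouse CD4+ T cells, in a table of 47643 genes of which 15300 had enough counts to be tested, and all 39 were among those. The study asked how the dose of antigen sets the response of T cells in vivo. It immunised Tg4 Tiger Nr4a3-Tocky mice under the skin with [4Y] MBP peptide, at a dose of 0.8 µg or of 80 µg, and took splenic T cells 4, 12 or 24 h later. Each of these 6 groups, and a control group of splenic T cells from mice that were not immunised, held 3 libraries, described as biological triplicates.

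All groups carried the same alleles. Tg4 T cells bear a transgenic receptor for a peptide of myelin basic protein, and the 4Y form of that peptide binds its MHC molecule more tightly than the natural one. Nr4a3-Tocky is a reporter in which a Timer protein, blue when made and red as it matures, is expressed from the Nr4a3 gene that antigen receptor signalling switches on. Tiger marks Il10 with GFP. Peptide was given without adjuvant, conditions under which these mice develop tolerance, and both sexes were used. The ages of the mice are not given in the sources used here. Cells of the immunised mice were sorted on Timer expression. Its state changes with the hours since stimulation, so time and sorting gate cannot be told apart. The controls were not immunised, and the paper does not state whether they received an injection without peptide. The peptide and the injection therefore cannot be told apart either. The paper gives a Timer gate for each time and none for the controls, which it calls non-activated. In every comparison with control, immunisation and selection of cells on Timer therefore cannot be told apart. In bulk RNA of this kind, fewer cells of a type and less RNA per cell cannot be told apart.

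Glycolysis splits glucose into pyruvate in the cytosol. Resting T cells use little glucose and oxidise most of the pyruvate in mitochondria, whereas a T cell stimulated through its receptor takes up more glucose and sends much of the pyruvate to lactate even when oxygen is present. The pentose phosphate pathway branches off after the first step and yields NADPH and the ribose of nucleotides, both needed for growth. Several steps are carried by alternative genes, so that a cell can change which form it uses as well as how much.

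Library totals ran from 2352800 to 6244279 counts, of which 21.1% to 34.6% fell on 3 ribosomal features (Gm42418, mt-Rnr2 and mt-Rnr1). Levels below are normalised counts, the raw counts divided by the DESeq2 size factor of the library, and means are given ± SD over 3 libraries. Single libraries are named by dose (low for 0.8 µg, high for 80 µg), time and replicate. A 3′ library gives about 1 read per transcript whatever its length. The 8 T cell markers were detected in every library and summed to between 5396 and 14054 normalised counts. Their sum was lower at 4 and 12 h (5396 to 8215) than in the controls (11815 to 12919), and Cd4 itself averaged 1039.7 in the controls and 219.9 with 80 µg at 4 h. The part of this in the results was not tested. Markers of other cells were present at lower levels. Summed erythroid markers ranged from 19.7 to 786 in single libraries, B cell markers (mostly Ighm) from 120.1 to 1614, the 2 CD8 markers from 45.7 to 181, myeloid markers from 16.3 to 155, NK markers from 0 to 18.5 and platelet markers from 0 to 2.92. The B cell sum moved with the groups, from 1261 to 1351 in the controls to 120.1 to 273 at 4 and 12 h and 1065 to 1614 at 24 h, which was not tested for its part in the results either.

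Against control, more of the 39 genes were higher than lower in all 6 immunised groups. The largest rises with 80 µg at 4 h were of Hk2 (7.09), the inducible hexokinase, and Slc16a1 (3.60), a lactate transporter, and the largest fall was of Pdk1 (-3.71), a kinase that keeps pyruvate from oxidation. At 12 h with 80 µg Hk2 (6.42) and Tpi1 (3.74), triose phosphate isomerase, led the rises, and at 24 h Tpi1 (3.35) and Hk2 (3.20). These are log2 values. A gene is said to have risen or fallen where its adjusted p was under 0.05 in the DESeq2 Wald test over all genes, and fold changes are log2 values shrunk towards 0, ± SE. A call is said to be lost without a library where the fit that left it out no longer passed, and the estimates in brackets are the log2 fold changes of those fits. With 0.8 µg at 4 h, 28 of the 39 passed, 71.8% beside 54.6% of all genes tested, and 19 of them rose and 9 fell. The risers were 48.7% of the 39, beside 25.4% of all genes, and the fallers 23.1% beside 29.2%. With 80 µg at 4 h, 30 passed (57.1% of all genes), 19 of which rose (26.3% of all genes) and 11 fell (30.7%). The share of fallers was therefore near the background at 4 h and the share of risers above it.

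By 12 h the fallers were few. With each dose 27 genes passed, beside 53.1% of all genes with 0.8 µg and 52.7% with 80 µg. With 0.8 µg, 23 genes had risen and 4 had fallen, beside 25.2% and 27.9% of all genes. With 80 µg the counts were 24 and 3, beside 25.3% and 27.4%. The median log2 fold change of the 39 genes was 0.87 with 0.8 µg, where the median over all genes was -0.11, and 0.78 with 80 µg, where it was -0.11.

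At 24 h 23 genes passed with 0.8 µg (background 36%) and 24 with 80 µg (background 39.1%), nearly all above control. There were 21 risers and 2 fallers with 0.8 µg (background 20.8% and 15.2%) and 22 and 2 with 80 µg (background 22.1% and 16.9%). Passing with a change of more than 1 log2 unit were 20 genes with 0.8 µg and 22 with 80 µg at 4 h (background 40.7% and 43.5%), 20 and 19 at 12 h (37.7% and 37.9%) and 11 and 15 at 24 h (17.3% and 20.2%).

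All 6 comparisons share the same 3 control libraries, so their results are not independent of each other, and the plots of the change from control and of every library show them side by side.

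**Figure D1:**
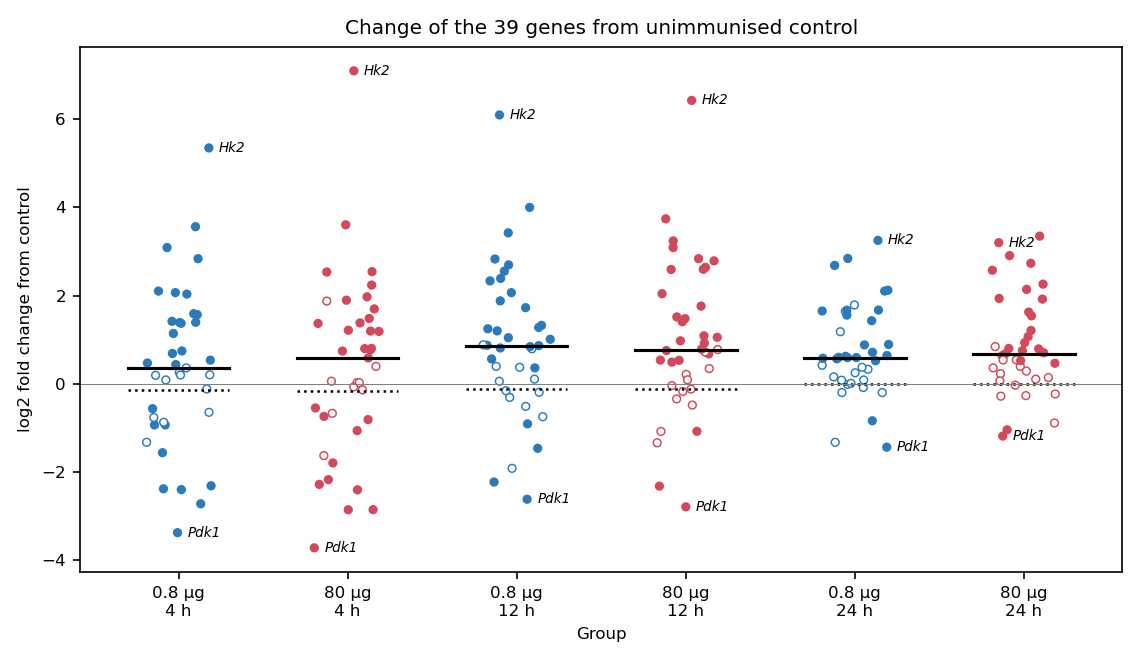
Log2 fold change of each of the 39 genes from control (vertical axis, shrunken estimates) in the 6 immunised groups, blue for 0.8 µg and red for 80 µg. Filled points passed the test, solid bars are the medians of the 39 genes and dotted bars the medians of all genes tested. Hk2 lies highest in every group but 80 µg at 24 h, where Tpi1 does, and Pdk1 lies lowest in all 6 groups.

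**Figure D2:**
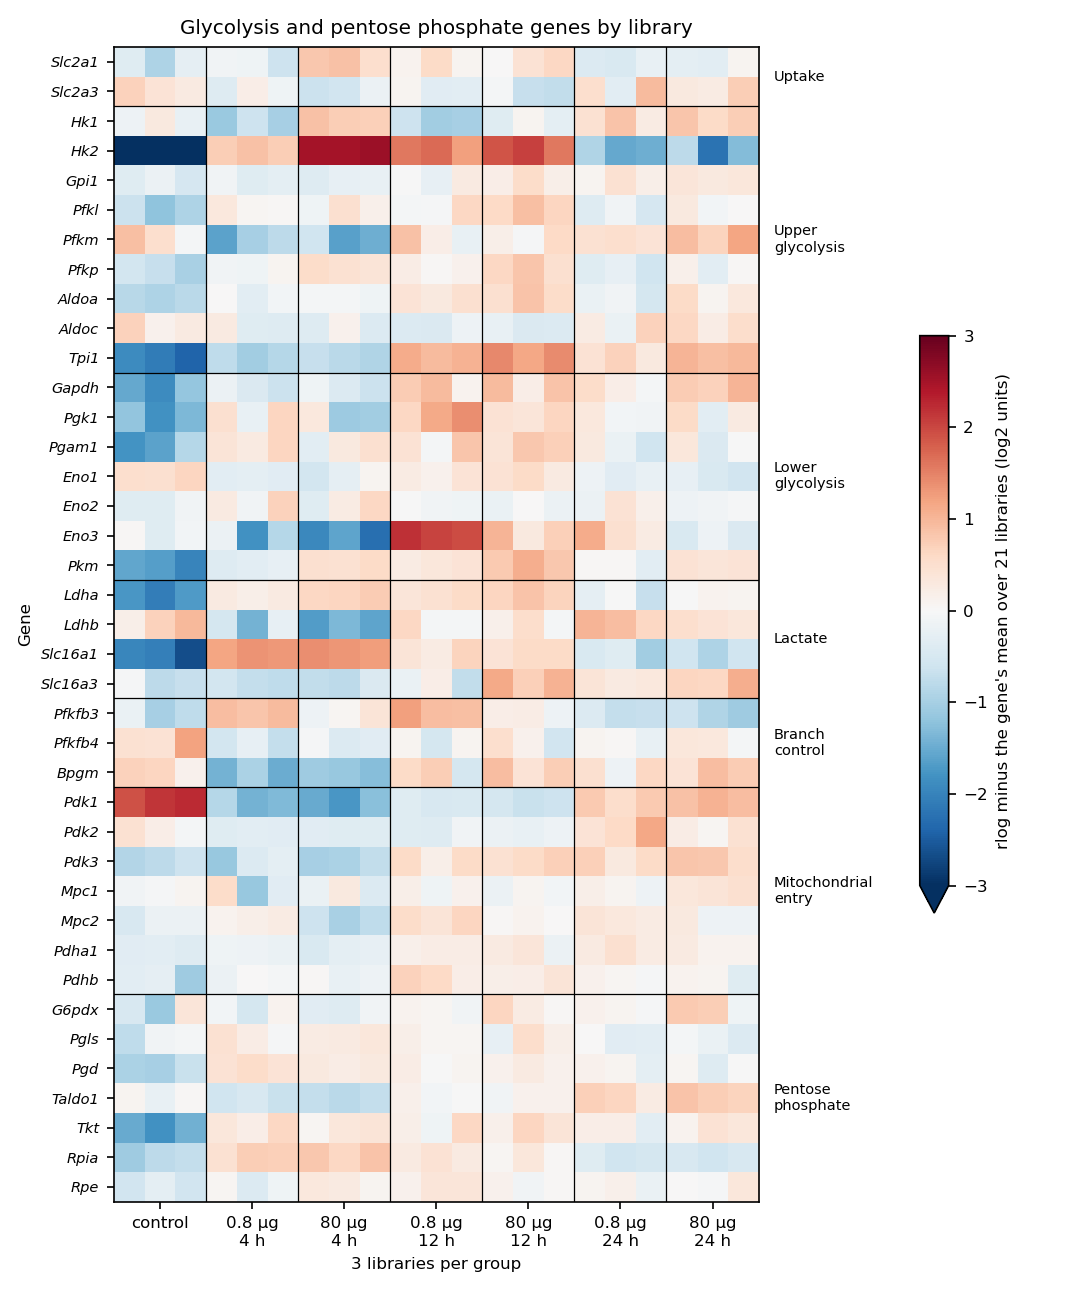
Deposited rlog values (a log2 scale) of the 39 genes in the 21 libraries, each as the difference from that gene's mean over all libraries, with the genes ordered by role. The colour scale stops at −3, below which the 3 control libraries of Hk2 lie. Tpi1, Pkm, Ldha and Slc16a1 are blue in the controls and paler or red elsewhere, while Pdk1 is the reverse.

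At the step of glucose entry the changes were modest. Slc2a1 encodes GLUT1, the transporter that activated T cells bring to their surface. It counted 51.5, 32.5 and 55.7 in the control libraries, 62.6, 61.9 and 42.1 with 0.8 µg and 127, 136 and 101 with 80 µg at 4 h. All 3 libraries given 80 µg lay above all those given 0.8 µg, which overlapped the controls. At 12 h it counted 74.5, 106 and 72.8 with 0.8 µg and 69.4, 95.4 and 111 with 80 µg, and at 24 h 49.6, 47.6 and 57.8 with 0.8 µg and 54.8, 53.7 and 73.3 with 80 µg. Against control it had risen with 80 µg at 4 h (1.37 ± 0.26, adjusted p = 8.48e-07) and with both doses at 12 h (0.87 and 0.97), and it did not pass at 24 h. The call with 0.8 µg at 12 h was lost without low_12h replicate 2 (estimate 0.66). Slc2a3, which encodes the high-affinity transporter GLUT3, averaged 67.1 ± 12 in the controls. It fell with 80 µg to 31.4 ± 7.02 at 4 h (-1.06 ± 0.34, adjusted p = 0.00451) and 31.3 ± 10.9 at 12 h (-1.08 ± 0.34, adjusted p = 0.00396), and was 66.9 ± 30.8 and 65.5 ± 14.8 at 24 h.

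Hexokinase traps glucose in the cell as glucose 6-phosphate, the point from which glycolysis and the pentose phosphate pathway part. Hk2, the inducible form, was almost absent from the controls, with 12, 2 and 2 raw counts. Its normalised counts were 12.4, 2.03 and 2.86 there, 306, 339 and 308 with 0.8 µg at 4 h and 1072, 1064 and 1134 with 80 µg at 4 h. At 12 h they were 562, 612 and 439 with 0.8 µg and 698, 776 and 563 with 80 µg, and at 24 h 94.4, 58.7 and 61.9 with 0.8 µg and 103, 35.3 and 71.5 with 80 µg. No immunised library overlapped the controls, and all those at 24 h lay below all those at 4 and 12 h. With 80 µg at 4 h Hk2 rose by 7.09 ± 0.41 (adjusted p = 5.50e-58) on the log2 scale, the largest change from control of any of the 39 genes. That size depends on control replicate 1, which holds 12 of the 16 control counts, and without it the estimate was 7.78. The estimates with the other doses and times ranged from 3.20 to 6.42, and without that library from 3.84 to 7.10.

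Hk1, the housekeeping form of the same enzyme, moved otherwise. Its normalised counts were 203, 279 and 193 in the controls, 101, 144 and 110.1 with 0.8 µg and 424, 386 and 377 with 80 µg at 4 h. The 2 doses lay on opposite sides of the controls without overlap. At 12 h the counts were 144, 106 and 109 with 0.8 µg and 175, 241 and 182 with 80 µg, and at 24 h 315, 419 and 272 with 0.8 µg and 412, 345 and 388 with 80 µg. Thus with 0.8 µg Hk1 fell at 4 h (-0.93 ± 0.20, adjusted p = 6.34e-06) and at 12 h (-0.91 ± 0.19, adjusted p = 8.98e-06) and had risen at 24 h (0.57 ± 0.18, adjusted p = 0.00751), the last a call lost without control replicate 1, control replicate 3 or low_24h replicate 2 (estimates 0.37 to 0.50). With 80 µg it had risen at 4 h (0.80 ± 0.18, adjusted p = 3.27e-05) and at 24 h (0.75 ± 0.18, adjusted p = 0.000196).

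The make-up of hexokinase transcripts differed between times. Hk2 gave 2.64% ± 2.71 (SD, n = 3) of the Hk1 and Hk2 counts in the controls, 73% ± 2.54 with 0.8 µg and 73.4% ± 1.69 with 80 µg at 4 h. The control share rests on 16 Hk2 counts in all and came to 1.09% without control replicate 1. At 12 h the share was 81.6% ± 3.12 and 77.3% ± 2.31, and at 24 h it was 18% ± 5.39 and 14.9% ± 5.38. At 4 h both hexokinases counted higher with 80 µg, and the shares at the 2 doses overlapped. In GRCm38 Hk2 lies at chr6:82725025-82774454 and Hk1 at chr10:62268855-62379908, both on the minus strand.

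Downstream of hexokinase, Gpi1, the isomerase that makes fructose 6-phosphate, rose only modestly and not at 4 h, with fold changes between 0.36 and 0.68 in the 4 comparisons it passed, of which the one with 0.8 µg at 12 h was lost without control replicate 1, control replicate 3 or low_12h replicate 3 (estimates 0.22 to 0.35). Phosphofructokinase commits the sugar to glycolysis. Of its 3 genes, Pfkp, the platelet form, was the most counted and rose from 225 ± 33.9 to 527 ± 33 with 80 µg at 4 h (1.21 ± 0.14, adjusted p = 3.58e-16) and 601 ± 75.7 at 12 h. Pfkl, the liver form, rose in each immunised group, by 0.64 to 1.76, and the smallest of these, with 0.8 µg at 24 h, was lost without control replicate 2, control replicate 3, low_24h replicate 1 or low_24h replicate 2 (estimates 0.48 to 0.68). Pfkm, the muscle form, counted 29.9, 20.3 and 11.4 in the controls, 0, 2.63 and 4.32 with 0.8 µg and 5.79, 0 and 0.857 with 80 µg at 4 h. It therefore lay below every control library at 4 h, with changes of -2.72 and -2.85. Its counts of 29.4, 15 and 9.39 with 0.8 µg and 14.6, 11.7 and 22.4 with 80 µg at 12 h and of 19.5, 20.5 and 18.6 with 0.8 µg and 30.7, 23.5 and 38.2 with 80 µg at 24 h did not pass against control. Without high_4h replicate 1, which held 5 of its 6 counts in that group, the fall with 80 µg came to −3.64. Despite these moves Pfkp kept between 73% ± 0.822 and 81.9% ± 3.38 of the family's counts.

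Aldolase and triose phosphate isomerase cut the sugar and make its pieces interchangeable. Aldoa, the main aldolase of T cells, rose in each group, from 365 ± 17.8 in the controls to 889 ± 53.8 with 0.8 µg (1.28 ± 0.14, adjusted p = 3.27e-20) and 1048 ± 149.6 with 80 µg at 12 h (1.52 ± 0.13, adjusted p = 2.57e-28). Aldoc held 58 counts over all libraries and fell at 12 h by the test, on means of 5.19 in the controls and 0.391 and 0.305 with the low and high dose. The call with 0.8 µg was lost without control replicate 1, control replicate 3, low_12h replicate 1 or low_12h replicate 2 (estimates -2.11 to -1.67) and that with 80 µg without control replicate 1, high_12h replicate 2 or high_12h replicate 3 (estimates -1.95 to -1.76). Tpi1 counted 28.9, 24.3 and 17.1 in the controls, 70.7, 56.6 and 65.8 with 0.8 µg and 74.1, 68.8 and 64.3 with 80 µg at 4 h. It then counted 282, 249.7 and 269 with 0.8 µg and 359, 292 and 348 with 80 µg at 12 h and 172, 206 and 155 with 0.8 µg and 265, 241 and 255 with 80 µg at 24 h. No immunised library overlapped the controls, and no library at 4 h reached those at 12 or 24 h. The change from control was 1.40 ± 0.24 and 1.48 ± 0.24 at 4 h and 3.42 ± 0.22 and 3.74 ± 0.22 at 12 h for the low and the high dose.

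The later steps of glycolysis return ATP and NADH. Gapdh, which makes the NADH, counted 14.4, 10.1 and 20 in the controls, 47.4, 38.2 and 32.4 with 0.8 µg and 48.6, 38.7 and 32.6 with 80 µg at 4 h. Its counts were 99, 114 and 58.7 with 0.8 µg and 114, 63.1 and 105 with 80 µg at 12 h and 83.7, 63.4 and 51.6 with 0.8 µg and 98.6, 92 and 119 with 80 µg at 24 h, above every control library at each time. The rise was smallest with 0.8 µg at 4 h (1.37 ± 0.36, adjusted p = 0.000413) and largest with 80 µg at 24 h (2.73 ± 0.34, adjusted p = 8.16e-14). These counts are low for an abundant transcript, and the 3′ end of Gapdh is shared with 130 other annotated genes, 125 of them pseudogenes, at 95% identity or more over at least 100 bases. A read that fits several copies can be lost in counting, so the level of Gapdh is uncertain, as it is for Ldha, with 6 such genes, and Eno1, with 5. Aldoa, Tpi1, Pkm and Mpc1 have 2 such genes each, and Gpi1 and Ldhb have 1. This limit therefore holds for 9 of the genes described.

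Pgk1, which makes the first ATP of the pathway, was at the limit of detection in the controls, with 3, 0 and 1 raw counts. Its normalised counts were 24.2, 11.9 and 28.1 with 0.8 µg and 20.8, 3.87 and 4.29 with 80 µg at 4 h, 27.4, 43.6 and 55.2 with 0.8 µg and 22.8, 21.3 and 28.2 with 80 µg at 12 h and 20.4, 14 and 13.4 with 0.8 µg and 26.3, 11 and 19.7 with 80 µg at 24 h. All 18 immunised libraries lay above the controls, where it counted 3.09, 0 and 1.43. Its rise with 80 µg at 4 h, 1.97 ± 0.67 (adjusted p = 0.00752), was lost without control replicate 2 or high_4h replicate 1 (estimates 1.06 to 1.39). Pgam1, the mutase of the next step, likewise had 1, 2 and 5 raw counts in the controls. There it counted 1.03, 2.03 and 7.14, beside 27.3, 25 and 34.5 with 0.8 µg and 13.9, 25.2 and 30 with 80 µg at 4 h, 28.4, 18.1 and 41.1 with 0.8 µg and 27.4, 39.6 and 36.9 with 80 µg at 12 h and 25.3, 15.9 and 10.3 with 0.8 µg and 26.3, 12.5 and 19.1 with 80 µg at 24 h with the low and the high dose. No immunised library overlapped the controls, and the change was 2.12 ± 0.56 to 3.09 ± 0.55.

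The enolases were the exception among these enzymes. Eno1, the broadly expressed form, averaged 167 ± 11.5 in the controls and fell at 4 h to 86.8 ± 1.51 and 93.5 ± 22.5 and at 24 h to 92.7 ± 6.36 and 81 ± 10.2, with changes of -0.81 to -1.04. It did not pass at 12 h. Eno3, the muscle form, counted 41.2, 29.4 and 37.1 in the controls, 34.3, 6.59 and 19.4 with 0.8 µg and 5.79, 9.69 and 4.29 with 80 µg at 4 h. It counted 217, 189.6 and 181 with 0.8 µg and 88.6, 49.9 and 70 with 80 µg at 12 h, and 95.4, 57.8 and 48.5 with 0.8 µg and 27.4, 35.3 and 28.3 with 80 µg at 24 h. With 80 µg at 4 h every library lay below the controls (-2.28 ± 0.43, adjusted p = 4.73e-07), while with 0.8 µg at 12 h every library lay above them (2.39 ± 0.33, adjusted p = 3.56e-12). Eno3 also rose with 80 µg at 12 h (0.92), a call lost without control replicate 2 or high_12h replicate 1 (estimates 0.71 to 0.79). Its rise with 0.8 µg at 24 h (0.88) was lost without control replicate 2, control replicate 3 or low_24h replicate 1 (estimates 0.55 to 0.90). Eno2 had 53 counts in all libraries together, and its pass with 0.8 µg at 4 h (adjusted p = 0.0495) was lost without control replicate 1, control replicate 2, low_4h replicate 1 or low_4h replicate 3 (estimates 1.41 to 2.01).

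Pkm, pyruvate kinase, and Ldha, which reduces pyruvate to lactate, were the most counted genes of the set in every immunised group. Pkm averaged 493 ± 76.9 in the controls, 1326 ± 68.8 and 2346 ± 96.5 at 4 h, 2082 ± 128 and 3099.6 ± 399.8 at 12 h and 1578 ± 221 and 2191 ± 59.1 at 24 h, the low dose first. Ldha averaged 448 ± 63.3 in the controls and 1928 ± 70.9 and 2618 ± 130.2 at 4 h, 2265 ± 153 and 2718 ± 223 at 12 h and 1321 ± 305 and 1698 ± 70 at 24 h. Both rose in each group, Pkm by at most 2.64 ± 0.11 (adjusted p = 5.31e-120) and Ldha by at most 2.60 ± 0.12 (adjusted p = 9.06e-94). The files count genes and not isoforms, so the M1 and M2 forms of pyruvate kinase were not separated.

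Lactate leaves the cell through monocarboxylate transporters. Slc16a1, which encodes MCT1, counted 95.9, 89.2 and 54.2 in the controls, 907, 1029 and 997 with 0.8 µg and 1066, 1005 and 950.0 with 80 µg at 4 h. It counted 516, 466 and 627 with 0.8 µg and 523, 596 and 591 with 80 µg at 12 h and 283, 302 and 188 with 0.8 µg and 256, 204 and 258 with 80 µg at 24 h. The 3 times formed separate ranges, highest at 4 h, with all of them above control. The change was 3.56 ± 0.17 (adjusted p = 1.80e-90) and 3.60 ± 0.17 (adjusted p = 4.53e-93) at 4 h and 1.65 ± 0.18 and 1.54 ± 0.18 at 24 h. Slc16a3, which encodes the lactate exporter MCT4 of glycolytic muscle, stayed near the detection limit, at 1.37 ± 2.38 in the controls and up to 16.1 ± 3.9, and passed with 80 µg at 12 h (2.84 ± 0.78, adjusted p = 0.00225) and 24 h (2.57 ± 0.78, adjusted p = 0.00826). Without control replicate 1 these came to 3.79 and 3.53, and the 24 h call was lost without control replicate 2 (estimate 2.10).

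Ldhb, the form that favours turning lactate back to pyruvate, counted 34, 52.7 and 67.1 in the controls, 18.2, 6.59 and 23.7 with 0.8 µg and 4.63, 7.75 and 6.00 with 80 µg at 4 h. All 6 libraries at 4 h lay below the controls, the change being -1.56 ± 0.38 (adjusted p = 0.000147) with 0.8 µg and -2.85 ± 0.43 (adjusted p = 5.74e-10) with 80 µg. At 12 h it counted 50, 27.8 and 28.2 with 0.8 µg and 33.8, 45.5 and 28.2 with 80 µg, and at 24 h 69.1, 63.4 and 49.6 with 0.8 µg and 44.9, 41.9 and 39.4 with 80 µg, and did not pass against control. Ldhb made up 10.3% ± 3.17 of the Ldha and Ldhb counts in the controls, 0.82% ± 0.424 and 0.233% ± 0.0597 at 4 h and 4.46% ± 0.593 and 2.43% ± 0.249 at 24 h.

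The mitochondrial side of the branch was led by a fall. Pdk1, a kinase that switches off pyruvate dehydrogenase and so keeps pyruvate out of the mitochondrion, was the most counted of the 39 genes in the controls, at 789.5, 933 and 1001. It counted 109, 71.1 and 76.6 with 0.8 µg and 66, 55.2 and 81.5 with 80 µg at 4 h, 154, 141 and 146 with 0.8 µg and 139, 124 and 128 with 80 µg at 12 h and 353, 293 and 356 with 0.8 µg and 377, 423 and 393 with 80 µg at 24 h. The times again formed separate ranges, all below control and lowest at 4 h. The change was -3.37 ± 0.16 (adjusted p = 3.40e-96) and -3.71 ± 0.16 (adjusted p = 2.04e-112) at 4 h and -1.44 ± 0.14 and -1.18 ± 0.14 at 24 h.

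Its relative Pdk3 averaged 45.3 ± 4.4 in the controls, did not pass at 4 h, and rose to 115 ± 18.2 and 127 ± 13 at 12 h and 123 ± 20 and 142 ± 16.5 at 24 h, by 1.32 to 1.63. Pdk1 accordingly went from 94.9% ± 0.391 of the counts of the 3 kinase genes in the controls to 50.5% ± 3.61 with 80 µg at 12 h. Pdk2 had 53 counts in all and none in the 6 libraries at 4 h, where 3 counts correspond to between 2.57 and 3.95 normalised counts, against a mean of 3.21 ± 1.87 in the controls. Its pass with 0.8 µg at 4 h (adjusted p = 0.0283) was lost without control replicate 1, low_4h replicate 1, low_4h replicate 2 or low_4h replicate 3 and that with 80 µg (adjusted p = 0.0198) without control replicate 1, high_4h replicate 2 or high_4h replicate 3.

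Mpc2, a subunit of the carrier that admits pyruvate to mitochondria, counted 99, 125 and 124 in the controls, 152, 161 and 169 with 0.8 µg and 89.1, 67.8 and 80.6 with 80 µg at 4 h. The doses lay on either side of the controls without overlap, a difference from control of 0.47 ± 0.17 (adjusted p = 0.0138) with 0.8 µg and -0.55 ± 0.18 (adjusted p = 0.00636) with 80 µg. The first was lost without control replicate 1 or low_4h replicate 3 (estimates 0.37 to 0.44) and the other without high_4h replicate 2 (estimate -0.43). At 12 h it counted 214, 187 and 227 with 0.8 µg and 146, 153 and 142 with 80 µg, and at 24 h 188, 179 and 169 with 0.8 µg and 175, 127 and 127 with 80 µg. Its partner Mpc1 passed in no comparison with control and averaged between 21.1 and 34.6. Pdha1 and Pdhb, subunits of pyruvate dehydrogenase, rose by at most 0.71 ± 0.14 and 1.05 ± 0.19. Pdhb was lost with 0.8 µg at 4 h without control replicate 3, low_4h replicate 2 or low_4h replicate 3 (estimates 0.23 to 0.43) and at 24 h without control replicate 3 (estimate 0.37), and with 80 µg at 24 h without control replicate 3, high_24h replicate 1 or high_24h replicate 2 (estimates 0.26 to 0.40).

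Side branches of glycolysis moved apart as well. Pfkfb3, whose product makes the activator of phosphofructokinase, averaged 77.5 ± 25.4 in the controls and rose to 237 ± 11.4 with 0.8 µg and 133 ± 27.5 with 80 µg at 4 h, and to 261 ± 37.2 and 132 ± 19.2 at 12 h. By 24 h it was 78.5 ± 10.4 and 64.7 ± 11.1 and did not pass. Pfkfb4, a relative of Pfkfb3, fell at 4 h with both doses (-2.40 and -1.79) and with 0.8 µg at 12 h (-1.46). Its call with 80 µg at 4 h was lost without control replicate 3, high_4h replicate 2 or high_4h replicate 3 (estimates -1.66 to -1.26) and that at 12 h without control replicate 3, low_12h replicate 1, low_12h replicate 2 or low_12h replicate 3 (estimates -1.64 to -0.93). Bpgm, which diverts an intermediate to 2,3-bisphosphoglycerate and is best known from red cells, averaged 41.7 ± 10.2 in the controls and fell to 7.33 ± 2.8 and 8.56 ± 0.783 at 4 h (-2.38 and -2.17), and was between 36.5 and 49.2 at 12 and 24 h. Summed erythroid markers, of which 6 of 7 were measured, ranged from 109.9 to 693 in the controls, 78.8 to 519 with 0.8 µg and 19.7 to 257 with 80 µg at 4 h. Their part in the values of Bpgm, and of Slc2a1, which red cell precursors also express, was not tested.

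In the pentose phosphate pathway the largest rises were of Tkt, Pgd and Rpia. Tkt, transketolase of the non-oxidative arm, averaged 163 ± 22.6 in the controls and between 523 and 678 in the immunised groups, with changes of 1.67 ± 0.19 to 2.04 ± 0.19. Pgd, the dehydrogenase that makes the second NADPH, rose most with 0.8 µg at 4 h, from 131 ± 17.5 to 344 ± 21.3 (1.39 ± 0.16, adjusted p = 5.83e-18). Rpia, which makes ribose 5-phosphate, rose from 104 ± 13.6 to 309.8 ± 33.3 and 338 ± 30.1 at 4 h (1.57 and 1.70) and was 135 ± 11.9 and 133 ± 5.96 at 24 h, where it did not pass.

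Taldo1, transaldolase, fell at 4 h (-0.56 ± 0.14, adjusted p = 0.000116 and -0.74 ± 0.14, adjusted p = 2.48e-07) and had risen at 24 h (0.60 ± 0.13, adjusted p = 2.60e-05 and 0.80 ± 0.13, adjusted p = 5.41e-09), from 392 ± 46.8 in the controls to 684 ± 48.4 with 80 µg. G6pdx, the entry enzyme and first source of NADPH, passed only with 80 µg at 24 h (0.93 ± 0.35, adjusted p = 0.025), on an average of 34.5 ± 21.7 in the controls and 66.2 ± 23.8 there, and was lost without control replicate 1, control replicate 2, high_24h replicate 1 or high_24h replicate 2 (estimates 0.60 to 0.82). Rpe, the epimerase, rose by 0.52 to 0.81 in the 5 comparisons it passed, and Pgls, the lactonase between G6pdx and Pgd, by 0.49 to 0.59 in 3. Of these Rpe was lost with 0.8 µg at 24 h without control replicate 1, control replicate 3, low_24h replicate 1 or low_24h replicate 2 (estimates 0.45 to 0.49), with 80 µg at 12 h without control replicate 1, control replicate 3 or high_12h replicate 1 (estimates 0.47 to 0.48) and at 24 h without high_24h replicate 3 (estimate 0.50). Pgls was lost with 0.8 µg at 4 h without control replicate 1 or low_4h replicate 1 (estimates 0.33 to 0.40), with 80 µg at 4 h without control replicate 1 (estimate 0.38) and at 12 h without control replicate 1, high_12h replicate 2 or high_12h replicate 3 (estimates 0.27 to 0.51).

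The sums of normalised counts describe the pathways as wholes. Glycolytic enzymes from hexokinase to lactate dehydrogenase summed to 2462 ± 118 in the controls, 5412 ± 205 and 8325 ± 219 at 4 h, 7665 ± 285 and 9804 ± 1003 at 12 h and 5243 ± 798 and 6782 ± 351 at 24 h, the low dose first. The sum with 80 µg at 12 h was 3.98 times that of the controls. Pkm and Ldha together held 36.3% to 39.9% of it in the control libraries and 53.3% to 61.0% in the immunised ones. Pentose phosphate enzymes summed to 1041 ± 94.4 in the controls and between 1796 ± 275 and 2003 ± 36.9 in the 6 immunised groups, and at each time the libraries of the 2 doses overlapped.

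**Figure D3:**
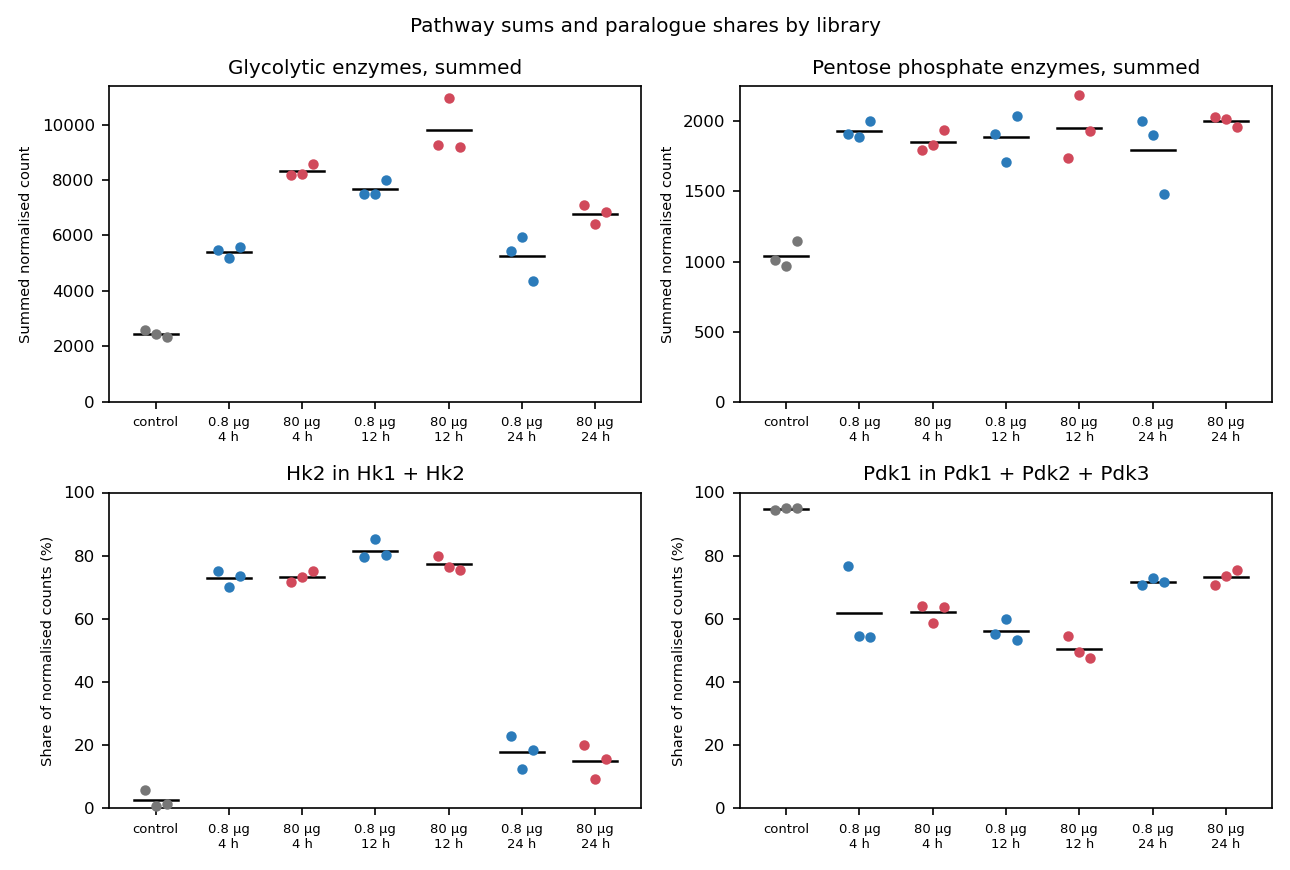
Summed normalised counts of the glycolytic and of the pentose phosphate enzymes (upper panels) and the percentage of hexokinase counts from Hk2 and of pyruvate dehydrogenase kinase counts from Pdk1 (lower panels) in each library, with a bar at the mean of each group of 3. Grey marks control, blue 0.8 µg and red 80 µg. The Hk2 share lies between 70.2% and 85.2% at 4 and 12 h and at or below 23.0% in the controls and at 24 h.

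The promoters of 4 genes, chosen after their values were seen, are given here so that the letters before their starts can be compared, for 3 that rose and 1 that fell. They are the 250 bases before a RefSeq gene start in GRCm38.p6, on the strand of the gene, and capitals mark CACGTG, the letters of an E-box that Myc and its relatives can bind, and ACGTG or GCGTG, the core letters of a hypoxia response element, on either strand. Every CACGTG also holds ACGTG on both strands.
Hk2, chr6:82774455-82774704, minus strand: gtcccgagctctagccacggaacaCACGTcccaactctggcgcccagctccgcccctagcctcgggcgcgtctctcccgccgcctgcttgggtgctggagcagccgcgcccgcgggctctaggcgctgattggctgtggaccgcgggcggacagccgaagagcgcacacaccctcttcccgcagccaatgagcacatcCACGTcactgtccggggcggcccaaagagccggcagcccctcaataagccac
Slc16a1, chr3:104638414-104638663, plus strand: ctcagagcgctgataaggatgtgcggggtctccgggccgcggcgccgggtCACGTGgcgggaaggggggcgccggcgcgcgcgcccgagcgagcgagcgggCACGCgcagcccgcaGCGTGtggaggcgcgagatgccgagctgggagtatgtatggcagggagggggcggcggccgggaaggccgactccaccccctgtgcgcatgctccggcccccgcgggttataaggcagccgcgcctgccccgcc
Ldha, the upstream one of 2 starts, chr7:46845554-46845803, plus strand: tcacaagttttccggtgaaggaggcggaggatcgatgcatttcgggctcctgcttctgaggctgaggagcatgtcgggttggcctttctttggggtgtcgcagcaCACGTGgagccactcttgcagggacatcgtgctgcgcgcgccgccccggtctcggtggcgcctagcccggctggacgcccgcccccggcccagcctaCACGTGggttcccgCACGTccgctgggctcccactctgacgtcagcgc
Pdk1, the upstream one of 2 starts, chr2:71872974-71873223, plus strand: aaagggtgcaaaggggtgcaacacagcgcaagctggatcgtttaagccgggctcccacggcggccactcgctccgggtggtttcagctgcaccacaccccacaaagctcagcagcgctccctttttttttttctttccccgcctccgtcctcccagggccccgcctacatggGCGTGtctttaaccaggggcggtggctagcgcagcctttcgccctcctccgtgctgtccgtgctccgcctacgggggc
The window of Ldha holds CACGTG at 145 and at 48 bases before the start, that of Slc16a1 at 200, and those of Hk2 and Pdk1 do not hold it. All 4 hold ACGTG or GCGTG, as do 33 of the 38 members with a window, while that of Tpi1, which rose more than Ldha at 12 and 24 h and less at 4 h, holds neither. Of the 39 genes, 38 had RefSeq windows, 54 in all, of which 9.26% held CACGTG, beside 8.26% of the 12578 windows of the genes tested and 6.02% of all 32851 windows. ACGTG or GCGTG stood in 75.9% of the 54, beside 55.2% and 38.6%. These are matches of letters only and say nothing of binding in these cells.

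The comparison of doses at each time asks what more antigen does to cells at the same Timer stage. With 80 µg over 0.8 µg at 4 h, 10 of the 36 genes with an adjusted p passed, which is 27.8% beside 12% of all genes tested. Of these 6 were higher (background 5.81%) and 4 lower (6.19%). At 12 h 6 of 36 passed (16.7% beside 6.27%) and at 24 h 5 of 34 (14.7% beside 5.93%). These 2 counts rest on single libraries, with 3 genes at 12 h without high_12h replicate 2, and at 24 h 2 genes without low_24h replicate 1, high_24h replicate 1 or high_24h replicate 3 and 3 without low_24h replicate 3. Higher with 80 µg were 3 genes at 12 h (3.67%) and 4 at 24 h (3.73%), and lower were 3 (2.6%) and 1 (2.2%). Passing with a change of more than 1 log2 unit were 6 genes at 4 h (background 5.85%), 1 at 12 h (2.79%) and 1 at 24 h (1.56%).

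**Figure D4:**
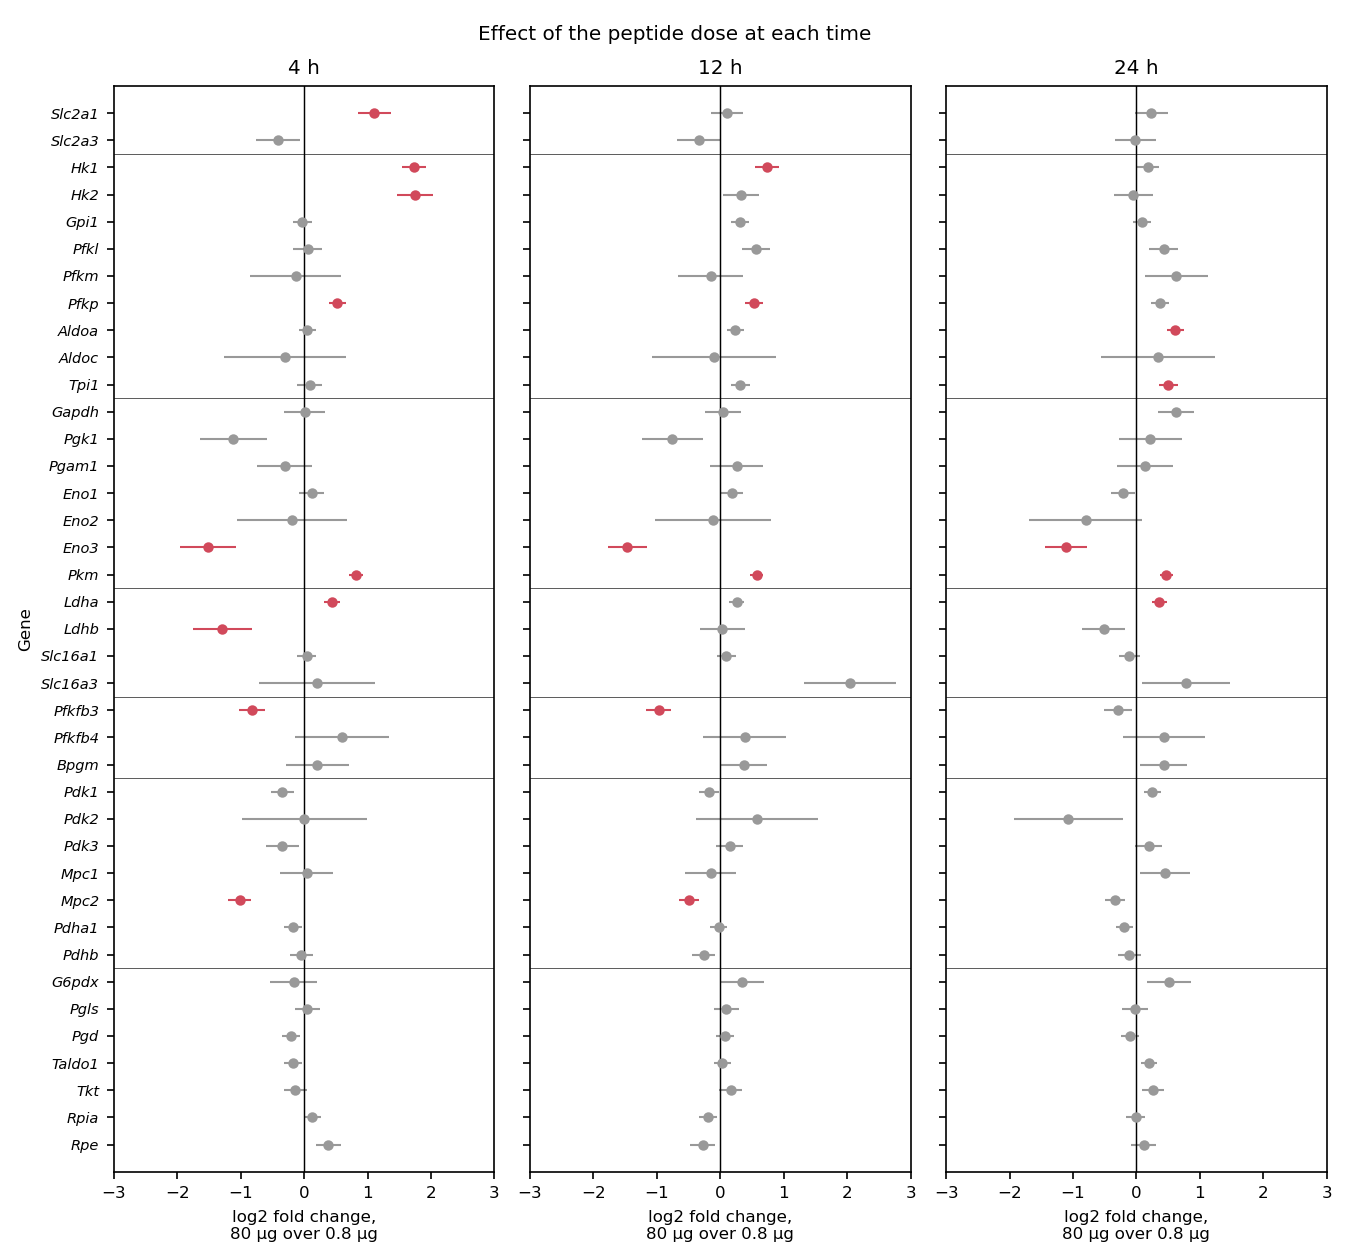
Log2 fold change of 80 µg over 0.8 µg for each of the 39 genes at 4, 12 and 24 h, ordered by role, with bars of 1 SE. Red points passed the test over all genes. Hk1 and Hk2 lie furthest right at 4 h, Eno3 passed on the left at all 3 times, and no point of the pentose phosphate genes at the bottom is red.

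**Figure D5:**
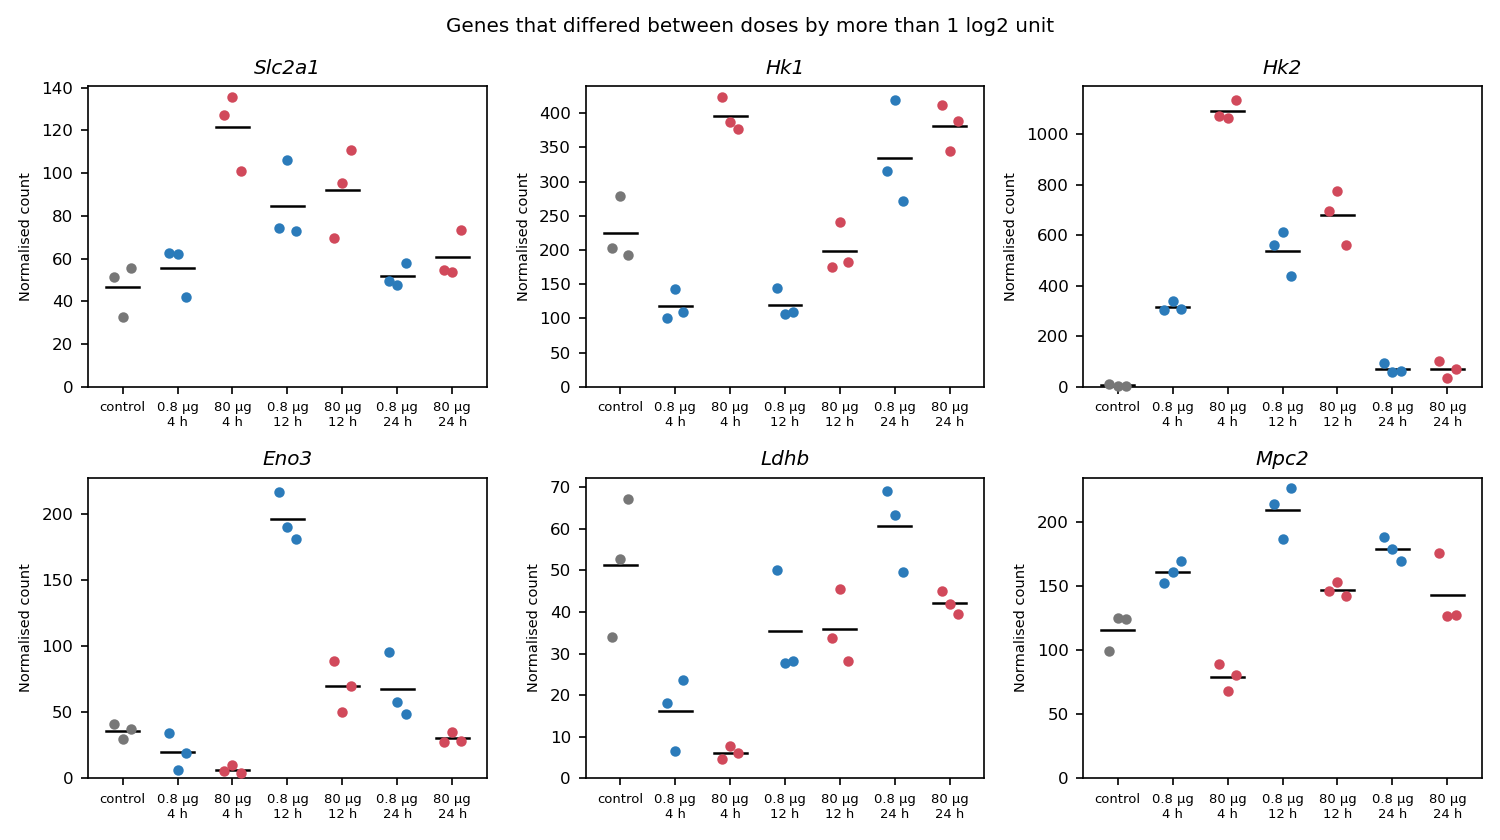
Normalised counts of the 6 genes that passed a dose comparison by more than 1 log2 unit, in each library, with a bar at the mean of 3 and vertical axes that start at 0. Grey marks control, blue 0.8 µg and red 80 µg. At 4 h the red points stand above the blue for Slc2a1, Hk1 and Hk2 and below them for Mpc2.

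Among the genes that passed, the largest rises with dose were at the entry steps, at 4 h. Both hexokinases were higher with 80 µg, Hk2 by 1.75 ± 0.28 (adjusted p = 3.38e-08) and Hk1 by 1.73 ± 0.19 (adjusted p = 1.09e-17), and so was the transporter Slc2a1, by 1.11 ± 0.26 (adjusted p = 0.000372). None of the libraries of one dose overlapped those of the other for these 3 genes. At 12 h Hk1 was still higher with 80 µg (0.73 ± 0.19, adjusted p = 0.00407), a call that was lost without low_12h replicate 2 or high_12h replicate 2 (estimates 0.57 to 0.64), while Hk2 and Slc2a1 differed by 0.33 ± 0.28 and 0.11 ± 0.25 and did not pass. At 24 h the differences were 0.18 ± 0.18 for Hk1, -0.05 ± 0.31 for Hk2 and 0.24 ± 0.26 for Slc2a1, and none passed. Markers of other cells also differed between doses. Cd8a averaged 53.8 with 0.8 µg and 3.84 with 80 µg at 12 h, and Lyz2, a myeloid gene, 53.1 and 6.11 at 4 h, and their part in the dose differences was not tested.

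Beyond the hexokinases, smaller rises with dose passed for single genes, while Gpi1, Pfkl, Aldoa, Tpi1, Gapdh, Pgk1, Pgam1 and Eno1 did not pass at 4 h (differences from -1.12 to 0.12). Pkm was higher with 80 µg at 4 h (0.82 ± 0.11, adjusted p = 2.14e-12), at 12 h (0.57 ± 0.11, adjusted p = 5.69e-06) and at 24 h (0.47 ± 0.11, adjusted p = 0.000667), each time without overlap of the libraries. Pfkp was higher at 4 h (0.52 ± 0.14, adjusted p = 0.0027) and at 12 h (0.53 ± 0.14, adjusted p = 0.00334), the latter lost without low_12h replicate 2 or high_12h replicate 2 (estimates 0.43 to 0.48). Ldha was higher at 4 h (0.44 ± 0.12, adjusted p = 0.00338) and, close to the threshold, at 24 h (0.36 ± 0.12, adjusted p = 0.0465), where edgeR gave an adjusted p of 0.0613 and the call was lost without low_24h replicate 1, low_24h replicate 3, high_24h replicate 1, high_24h replicate 2 or high_24h replicate 3 (estimates 0.20 to 0.39). At 24 h Aldoa (0.61 ± 0.13, adjusted p = 0.000223) and Tpi1 (0.51 ± 0.15, adjusted p = 0.0205) were higher too, Tpi1 being lost without low_24h replicate 1, low_24h replicate 3, high_24h replicate 1 or high_24h replicate 3 (estimates 0.42 to 0.50).

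Other genes were lower with the higher dose. Eno3 was lower at 4 h (-1.51 ± 0.44, adjusted p = 0.00737), at 12 h (-1.47 ± 0.31, adjusted p = 0.000154) and at 24 h (-1.11 ± 0.33, adjusted p = 0.0212). At 4 h its libraries overlapped, and that call was lost without low_4h replicate 1 or high_4h replicate 3 (estimates -1.22 to -0.97), whereas at 12 h the ranges did not overlap and no left-out library ended the call. The 24 h call was lost without low_24h replicate 1, high_24h replicate 1 or high_24h replicate 3 (estimates -1.05 to -0.78). Pfkfb3 was lower with 80 µg at 4 h (-0.82 ± 0.20, adjusted p = 0.000942) and at 12 h (-0.97 ± 0.20, adjusted p = 7.83e-05), both without overlap.

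Mpc2 was lower at 4 h (-1.02 ± 0.18, adjusted p = 4.30e-07) and, less firmly, at 12 h (-0.50 ± 0.16, adjusted p = 0.0373), where edgeR gave an adjusted p of 0.0923 and the call was lost without low_12h replicate 1, low_12h replicate 3, high_12h replicate 1, high_12h replicate 2 or high_12h replicate 3 (estimates -0.53 to -0.43). Ldhb was lower at 4 h (-1.29 ± 0.46, adjusted p = 0.0439), and this call was lost with edgeR (adjusted p = 0.0643) and without low_4h replicate 1, low_4h replicate 3, high_4h replicate 1, high_4h replicate 2 or high_4h replicate 3 (estimates -1.37 to -0.98).

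None of the 7 pentose phosphate genes passed a dose comparison at any time. At 4 h their dose differences ran from -0.20 ± 0.14 for Pgd to 0.38 ± 0.20 for Rpe, at 12 h from -0.28 ± 0.19 for Rpe to 0.35 ± 0.35 for G6pdx, and at 24 h from -0.10 ± 0.15 for Pgd to 0.51 ± 0.34 for G6pdx. Slc16a1 and Pdk1, with large changes from control, differed between doses by 0.04 ± 0.15 and -0.34 ± 0.19 at 4 h and did not pass either. Missing the threshold does not show that the doses acted alike on these genes.

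Whether the dose difference itself changed with time was tested in the 18 immunised libraries. Among the 34 genes with an adjusted p, 2 passed this likelihood ratio test of DESeq2, beside 10.4% of all genes tested. They were Hk1, with dose differences of 1.73 at 4 h, 0.73 at 12 h and 0.18 at 24 h (adjusted p = 3.95e-07), and Hk2, with 1.75, 0.33 and -0.05 (adjusted p = 1.15e-07).

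Between times, more genes of the set were higher than lower at 12 h than at 4 h, and the reverse held from 12 to 24 h. Those passing were 17 with 0.8 µg and 22 with 80 µg from 4 to 12 h (background 39.1% and 42.9%), and 19 and 18 from 12 to 24 h (44% and 44.7%). With 0.8 µg, 15 genes were higher and 2 lower at 12 h than at 4 h, beside 20.9% and 18.2% of all genes. With 80 µg the counts were 18 and 4, beside 23.6% and 19.3%. From 12 to 24 h, 4 were higher and 15 lower with 0.8 µg (background 24.9% and 19.1%), and 5 and 13 with 80 µg (background 24.9% and 19.8%). A change of more than 1 log2 unit went with the pass in 7 and 9 genes from 4 to 12 h (20.5% and 24.8%) and in 8 and 7 from 12 to 24 h (26.6% and 27.2%). These comparisons also cross the change of sorting gate, and the 12 h libraries enter both steps.

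Single genes differed in their time course. Tpi1 was higher at 12 h than at 4 h by 2.03 ± 0.18 with 0.8 µg and 2.26 ± 0.17 with 80 µg, and Eno3 by 3.15 ± 0.35 and 3.20 ± 0.41. Bpgm, Pfkm and Ldhb, low at 4 h, were also higher at 12 h with both doses, Ldhb with 0.8 µg being lost without low_4h replicate 2 or low_12h replicate 1 (estimate 0.72). Pfkm with 80 µg came to 3.30 without high_4h replicate 1, from 2.51. Slc16a1 was lower at 12 h than at 4 h, with changes of -0.86 and -0.82, and lower again at 24 h, with -1.04 and -1.25. Hk2 fell furthest of the 39 from 12 to 24 h, with changes of -2.84 and -3.22, while Hk1 rose over the same hours by 1.47 and 0.92. Pdk1 regained 1.18 and 1.60. Taldo1 climbed at both steps and with both doses, by 0.54 to 0.83. Tkt passed at neither step and with neither dose.

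Known regulators of these pathways give the setting. Of 12 listed, 9 passed against control with 0.8 µg and 9 with 80 µg at 4 h, 6 higher and 3 lower each time. Of all genes tested 25.4% were higher and 29.2% lower with 0.8 µg, and 26.3% and 30.7% with 80 µg. Myc, a driver of glycolytic genes in activated T cells, averaged 53.8 ± 13.8 in the controls and 918 ± 135 and 1188 ± 69.1 at 4 h, 187 ± 68.6 and 194 ± 41.5 at 12 h and 34.7 ± 6.54 and 35.1 ± 9.65 at 24 h. The dose difference of Myc at 4 h was 0.37 ± 0.20 (adjusted p = 0.265) and did not pass. Hif1a, the oxygen-regulated factor that also acts on glycolysis in stimulated T cells, averaged 205 ± 16.9 in the controls and 688 ± 74.6 and 2505 ± 353 at 4 h, a dose difference of 1.86 ± 0.14 (adjusted p = 1.30e-37). It was 872 ± 207 and 1209.5 ± 111 at 12 h, where the dose difference of 0.47 ± 0.14 (adjusted p = 0.0174) also passed, and 372 ± 28.2 and 493 ± 45.7 at 24 h.

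Txnip, which restrains glucose uptake, ran the other way, from 979.7 ± 197 in the controls to 9.55 ± 6.6 and 5.43 ± 3.33 at 4 h, 16.9 ± 11.6 and 11.3 ± 5.77 at 12 h and 209 ± 96.8 and 278 ± 23.1 at 24 h. Epas1, which encodes the related factor HIF-2α, averaged 52.7 ± 14.5 in the controls, had no counts with 0.8 µg at 4 h and averaged 13 ± 4.85 with 80 µg at 24 h. Arnt, the partner of both factors, fell to 46.5 ± 9.03 with 80 µg at 12 h (-1.52 ± 0.28, adjusted p = 2.25e-07).

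A list of 15 further targets of hypoxia signalling moved in both directions. Of the 14 measured, 5 rose and 5 fell with 0.8 µg at 4 h, and 7 and 3 with 80 µg. The shares of all genes tested were 25.4% higher and 29.2% lower with 0.8 µg and 26.3% and 30.7% with 80 µg. Egln3, a prolyl hydroxylase that marks HIF for destruction, averaged 6.45 ± 6.94 in the controls, 6.37 ± 0.279 with 0.8 µg and 117 ± 4.4 with 80 µg at 4 h, a dose difference of 3.94 ± 0.49 (adjusted p = 3.30e-13). At 12 h its means were 71.6 ± 35.5 and 37.1 ± 6.11, and their difference did not pass. Ndrg1 averaged 34 ± 9.56 in the controls, 364 ± 51.2 and 412 ± 42.1 at 4 h, and 21 ± 11.8 and 13 ± 1.52 at 12 h. Ak4, a mitochondrial adenylate kinase, had no counts in the controls and averaged 24.3 ± 4.28 to 27.8 ± 7.67 with 0.8 µg at 4 and 12 h. Bnip3l, a receptor for the removal of mitochondria, fell with 80 µg at 4 h from 202 ± 15.2 to 13.7 ± 4.91, and Mxi1, an antagonist of Myc, with 0.8 µg from 52.9 ± 3.4 to 6.14 ± 1.95.

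Other enzymes around these pathways moved in both directions. Of 25 further genes of sugar uptake and glycolysis, 15 were measured, and 4 rose and 2 fell with 80 µg at 12 h. Of all genes tested 25.3% were higher and 27.4% lower in that comparison, so the share that rose is near the background. Galk1, galactokinase, was the one that moved most, from 28.9 ± 10.8 in the controls to 343 ± 59 and 394 ± 57 at 12 h (3.67 ± 0.23, adjusted p = 1.42e-53). Galm, which readies galactose for it, fell at 4 h from 23.8 ± 2.48 to 4.34 ± 1.71 with 0.8 µg. Pfkfb1, a relative of Pfkfb3, fell with 0.8 µg at 4 h from 10.2 ± 10.5 to 0.36 ± 0.623. Ldhd, a lactate dehydrogenase of mitochondria, averaged 5.46 ± 2.97 in the controls and had no counts with 0.8 µg at 4 h, and Slc2a8, a sugar transporter, averaged 3.77 ± 4.88 and had none with 80 µg at 4 h.

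Of 8 further pentose phosphate and ribose genes, 7 were measured, and 2 rose and 3 fell with 0.8 µg at 4 h. These counts stand beside 25.4% higher and 29.2% lower of all genes tested. With 80 µg at 4 h 2 rose and 3 fell as well (background 26.3% and 30.7%). At 12 h 4 rose and 1 fell with each dose (background 25.2% and 27.9% with 0.8 µg, 25.3% and 27.4% with 80 µg). At 24 h 2 rose and 0 fell with each dose (background 20.8% and 15.2% with 0.8 µg, 22.1% and 16.9% with 80 µg). Prps1, which turns ribose 5-phosphate into the precursor of nucleotides, rose from 97.7 ± 8.66 to 345 ± 18.7 and 486 ± 12.2 at 4 h, and its dose difference of 0.50 ± 0.13 (adjusted p = 0.00269) passed. Its relative Prps2 fell with 80 µg at 4 h (-0.98 ± 0.17, adjusted p = 6.47e-08). H6pd, the counterpart of G6pdx in the endoplasmic reticulum, fell from 38.5 ± 18.1 to 3.64 ± 3.99 with 0.8 µg at 4 h, and Shpk, sedoheptulokinase, from 18.9 ± 3.47 to 0.439 ± 0.761. Rbks, ribokinase, rose with 0.8 µg at 12 h (1.47 ± 0.44, adjusted p = 0.00215).

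Of 10 further genes of pyruvate use, 9 were measured, and 3 rose and 3 fell with 80 µg at 12 h. The shares of all genes tested were 25.3% higher and 27.4% lower. Dld and Dlat, which complete the pyruvate dehydrogenase complex, rose by 1.88 ± 0.19 (adjusted p = 4.73e-22) with 80 µg and 1.51 ± 0.19 (adjusted p = 4.99e-14) with 0.8 µg at 12 h. Pdp1, a phosphatase that undoes the work of the Pdk kinases, fell with 0.8 µg at 12 h (-1.48 ± 0.49, adjusted p = 0.00685), and its relative Pdp2 rose with 0.8 µg at 4 h (1.28 ± 0.31, adjusted p = 0.00011). Pck2, which makes phosphoenolpyruvate in mitochondria, averaged 40 ± 14.2 in the controls, had no counts with 0.8 µg at 4 h, and was 28.4 ± 12.4 and 48.4 ± 16.6 at 24 h.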

How the data were processed

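Per the labels and the study's methods, libraries were 3′ QuantSeq (forward) from CD4+ T cells sorted from spleen. The authors trimmed the reads, aligned them to GRCm38 with STAR 2.5.2a, counted reads per gene with HTSeq and deposited those whole-number counts. The authors also deposited rlog values, which are on a log2 scale, and these were used for the heatmap only. The annotation release and the strand setting of the counting are not given in the sources used here.

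From the counts, DESeq2 1.42.0 in R 4.3.3 was fitted with 1 term for the 7 groups over all 21 libraries, keeping genes with at least 10 counts in total. Wald tests were adjusted by Benjamini-Hochberg over all genes with a threshold of 0.05, and log2 fold changes were shrunk with a normal prior. The dose by time interaction used the likelihood ratio test of DESeq2. The fitting code was tested on simulated data. Promoter windows came from RefSeq and 3′ end copies from BLAST 2.17.0 on GENCODE M21 transcripts.

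The 39 members and the other gene lists were chosen with earlier results of these data known. Genes with values in every library were named by a rule: the 8 largest changes from control, those passing a dose comparison by more than 1 log2 unit, and Gapdh, and from the other lists Hif1a, Myc, Txnip and up to 5 of the largest changes. The remaining members are given by means and counts. Alternatives were edgeR 4.0.16 with TMM, TMM factors in DESeq2, 2 other filters on low counts, a replicate block, fits on the compared samples only, a fold threshold and leaving out each library.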

Additional observations from a re-analysis of the deposited data

Results flagged for a closer look

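The effect of dose differed between times for 2 of the 34 genes with an adjusted p, both hexokinases, beside 10.4% of all genes tested, by the likelihood ratio test of DESeq2 for a dose by time interaction. For Hk1 the largest and smallest of the 3 dose differences lay 1.55 log2 units apart, with 80 µg above 0.8 µg by 1.73 at 4 h, 0.73 at 12 h and 0.18 at 24 h. For Hk2 they lay 1.80 apart, with 1.75 at 4 h, 0.33 at 12 h and −0.05 at 24 h. The Hk1 libraries of the 2 doses did not overlap at 4 or 12 h, and those of Hk2 did not overlap at 4 h.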

How the results depend on the processing

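None of the 256 passes of single genes in the 13 comparisons changed sign under an alternative. Of them 251 still passed with edgeR and TMM, 256 with TMM factors in DESeq2, 255 with no filter on low counts, 248 of 249 with at least 10 counts in 3 libraries, 236 with only the compared samples, and 1374 of 1536 fits that left out a library. Deviations of same-numbered libraries from their group means correlated from −0.25 to 0.25 over 6636 genes, with 12 of 39 pairs above 0.1. Replicate 3 gave 0.23, 0.24 and −0.17 between doses at 4, 12 and 24 h. From 4 to 12 h it gave 0.25 with 0.8 µg and 0.19 with 80 µg. From 12 to 24 h it gave 0.06 and −0.25, and against control −0.11 to 0.17. Libraries with different numbers were not compared, so whether the numbers pair the libraries was not settled. With the replicate block 248 of the 256 passes held, and the dose counts were 9 against 10 at 4 h, 5 against 6 at 12 h and 4 against 5 at 24 h. The 8 lost (DESeq2 adjusted p from 0.054 to 0.0652) were Ldhb, Mpc2 and Ldha between doses at 4, 12 and 24 h, Eno2 and Aldoc against control with 0.8 µg at 4 and 12 h, Pfkl from 12 to 24 h with 0.8 µg, and with 80 µg Hk2 from 4 to 12 h and Slc2a1 from 12 to 24 h. Requiring more than 1 log2 unit as well left 11 genes with 0.8 µg and 15 with 80 µg at 24 h against control, 6, 1 and 1 between doses at 4, 12 and 24 h, 7 and 9 from 4 to 12 h with the low and the high dose, and 8 and 7 from 12 to 24 h. With only the compared samples 3 genes passed between doses at 24 h. These alternatives are stricter or use fewer samples by construction. TMM scaling, which shifted all genes by at most 0.0351 log2 units in a comparison, gave glycolytic sums of 8683.5 with 80 µg at 4 h and pentose phosphate sums of 1995.6 with 0.8 µg and 1935.9 with 80 µg at 4 h and 2065.1 with 80 µg at 24 h. Leaving out 1 library gave 3 (without high_12h replicate 2) to 7 genes between doses at 12 h and 2 (without low_24h replicate 1, high_24h replicate 1 or high_24h replicate 3) to 5 at 24 h. Low counts limit what can be said of Pgk1, Pgam1, Pfkm, Pfkfb4, Eno2, Aldoc, Pdk2 and Slc16a3, each with at most 494 counts over the 21 libraries together. What set these low totals was not tested.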
